A study of Mus musculus with 6 samples.

Results

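The CTCF sites around 5 genes of erythroid transcription factors, Tal1, Lmo2, Klf1, Zfpm1 and Runx1, were examined in mouse G1E-ER4 erythroblasts with and without BRD2. The members are all CTCF peaks inside 5 windows of the mm9 genome: chromosome 4 from 114.55 to 114.9 Mb for Tal1, chromosome 2 from 103.6 to 104.0 Mb for Lmo2, chromosome 8 from 87.3 to 87.55 Mb for Klf1 and from 124.7 to 125.0 Mb for Zfpm1, and chromosome 16 from 92.4 to 93.0 Mb for Runx1. Peaks of different libraries that overlapped by at least 1 bp were joined into 1 site. The windows held 97 of the 48367 sites of the series: 21 around Tal1, 20 around Lmo2, 25 around Klf1, 12 around Zfpm1 and 19 around Runx1. These came from 88 of 40271 wild-type peaks, 67 of 29769 peaks of clone D and 74 of 32308 peaks of clone C8.

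G1E-ER4 cells lack endogenous GATA1 and carry GATA1 fused to the estrogen receptor (GATA1-ER), so estradiol switches GATA1 activity on. All cells in this comparison, wild type and BRD2-null alike, shared this background and received 100 nM estradiol for 24 hours. CTCF was immunoprecipitated and sequenced (ChIP-seq) in 1 library of wild-type cells and 1 library each of D_Brd2KO and C8_Brd2KO, here called clone D and clone C8. Each of these is a single clonal sub-line made with CRISPR/Cas9 with no BRD2 that could be detected, per the labels. BRD2 is a BET protein that binds acetylated histones. The 3 inputs were left aside. As each genotype or clone had 1 library, genotypes were not tested against each other, and how far the 2 clones lie apart is all that shows the spread. The lists give no read totals, so depth is unknown, and where a list holds no peak, none was called, which does not show the site to be empty. The question behind the comparison is whether CTCF occupancy differs without BRD2. The erythroid label was not checked against marker genes, since peak lists hold no expression values.

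CTCF recognises a long DNA motif through its zinc fingers and, together with cohesin, anchors chromatin loops and domain borders, which can limit the reach of enhancers. TAL1, a basic helix-loop-helix factor, and LMO2, a LIM-domain adaptor, form a complex with GATA1 and LDB1 that activates erythroid genes. KLF1 is a zinc finger activator of the adult beta-globin gene, and Zfpm1 encodes FOG1, the cofactor that binds GATA1 directly. RUNX1 is required for the first definitive blood stem cells and is transcribed from a distal and a proximal promoter.

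In RefSeq gene order (GRCm38.p6), Tal1 lies between the protein-coding genes Stil and Pdzk1ip1, Lmo2 between Caprin1 and 4931422A03Rik, Klf1 between Gcdh and Dnase2a, Zfpm1 between Zfp469 and Trhr2, and Runx1 between Clic6 and Setd4. No mm9 annotation was used here, so sites are given by position, and the distances to Tal1, Klf1 and Runx1 rest on approximate mm9 positions used to set the windows: 114.73 to 114.74 Mb, 87.426 Mb and 92.6 to 92.83 Mb. RefSeq promoter sequences were present for 4 of the 5 genes, all but Lmo2. Promoters of these genes were searched on both strands, over 300 bases, for the core CTCF consensus of 14 letters with at most 2 mismatches, which 14.4% of 32851 RefSeq promoters held. The promoters searched were 2 each for Tal1 and Runx1 and 1 each for Klf1 and Zfpm1. Of these, 1 held a match, the second Tal1 promoter. So few promoters do not allow a comparison with the share of all promoters. The 250 bases before that Tal1 start and before the Klf1 start are shown because a strong CTCF site lay 0.8 kb from the approximate position of Klf1 and this Tal1 promoter held the match. Both are on the plus strand of GRCm38.p6, at chr8:84901732-84901981 for Klf1 and chr4:115057561-115057810 for Tal1, and capitals mark the consensus match. They are not the sequences of the mm9 peaks described below, and the overlap of either with a peak was not determined.
Klf1: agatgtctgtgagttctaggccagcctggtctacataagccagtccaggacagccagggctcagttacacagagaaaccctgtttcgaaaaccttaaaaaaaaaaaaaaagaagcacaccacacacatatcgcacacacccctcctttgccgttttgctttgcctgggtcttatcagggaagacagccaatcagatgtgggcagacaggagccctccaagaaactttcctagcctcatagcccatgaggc
Tal1: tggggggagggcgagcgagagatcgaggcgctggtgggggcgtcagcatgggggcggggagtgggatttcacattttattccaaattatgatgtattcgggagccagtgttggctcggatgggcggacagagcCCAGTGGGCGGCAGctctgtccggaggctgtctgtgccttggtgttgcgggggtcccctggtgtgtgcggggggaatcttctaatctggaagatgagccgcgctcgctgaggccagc

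The strongest CTCF sites of the 5 windows were called in all 3 libraries, and most sites missing from 1 or more lists were weak calls. Of the 97 sites, 60 were called in all 3 lists (61.9%, exact 95% binomial interval 51.4 to 71.5), against 49.5% of all sites of the series, a share just below that interval. All 43 wild-type peaks of the windows that reached a −log10 p of 20 were overlapped in both clones (interval 91.8 to 100%), where the whole wild-type list gave 99.1%. The −log10 p is the authors' significance value of a peak, and its lowest value in each list is 5. Besides the 60 shared sites, 37 were absent from at least 1 list, and only 7 of these reached a −log10 p of 10 in any list. The same share over all sites absent from a list was not counted. Over the whole wild-type list, weak peaks were also missed more often. There, both clones overlapped 94.0% of peaks above the median enrichment and 25.5% of those below. Intervals here cover counting error only.

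Seen from the wild-type list, clone D overlapped 63 of the 88 member peaks (71.6%, 61.0 to 80.7), against 63.1% of all wild-type peaks. Clone C8 overlapped 66 (75.0%, 64.6 to 83.6), against 65.3%, and both clones overlapped 60 (68.2%, 57.4 to 77.7), against 59.8%. All 3 genome-wide shares lie inside the members' intervals. The member peaks were also stronger than the list as a whole: their median enrichment was 33.73 in wild type, against 22.68, and 67.0% lay above the median of the list. This was less marked in clone D (21.57, against 17.35, with 58.2% above) and clone C8 (25.75, against 21.53, with 54.1% above). Among wild-type peaks above the wild-type median, both clones overlapped 55 of 59 member peaks (93.2%, 83.5 to 98.1), close to 94.0% of all such peaks. Below the median they overlapped 5 of 29 (17.2%, 5.85 to 35.8), against 25.5%. On each side of the median, the share of the whole list lies inside the interval of these windows.

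**Figure D1:**
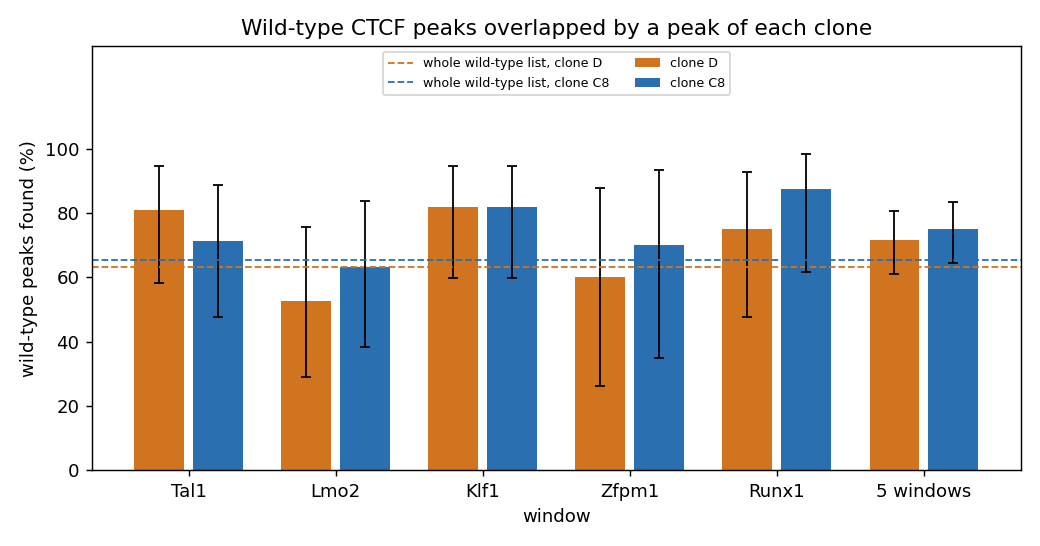
Share of wild-type CTCF peaks (%) overlapped by a peak of clone D (orange) or clone C8 (blue), for each window and for the 5 windows together; error bars are exact 95% binomial intervals and dashed lines the share over the whole wild-type list. Every interval spans the dashed line of its clone, and the Lmo2 bars are the lowest in clone D (52.6%) and clone C8 (63.2%).

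By window, both clones overlapped 18 of 22 wild-type peaks around Klf1 (81.8%), 12 of 16 around Runx1 (75.0%), 15 of 21 around Tal1 (71.4%), 6 of 10 around Zfpm1 (60.0%) and 9 of 19 around Lmo2 (47.4%). The intervals of Klf1 (59.7 to 94.8) and Lmo2 (24.4 to 71.1), the highest and the lowest, overlap. Sites called in wild type only numbered 19 of 97 (19.6%), against 26.2% of all sites. They numbered 6 around Lmo2, 4 each around Tal1 and Klf1, 3 around Zfpm1 and 2 around Runx1, and 16 of the 19 had a −log10 p below 10. The share of such weak calls among all wild-type-only sites of the series was not counted. Sites of both clones and not wild type numbered 2 (2.06%), against 4.48%, 1 each around Klf1 and Zfpm1. Clone C8 alone had 6 sites (6.19%), against 7.94% of all sites, and clone D alone had 1 (1.03%), against 4.70%. Wild type and clone C8 without clone D shared 6 sites (6.19%, against 4.54%), and wild type and clone D without clone C8 shared 3 (3.09%, against 2.70%). Each of these background shares lay within the interval of the members' share. With lists of equal length the order of 2 of the shares against the background turned: wild-type-only sites made up 13.6% of the member sites, against 11.4%, and clone D overlapped 79.2% of member peaks, against 80.6%.

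**Figure D2:**
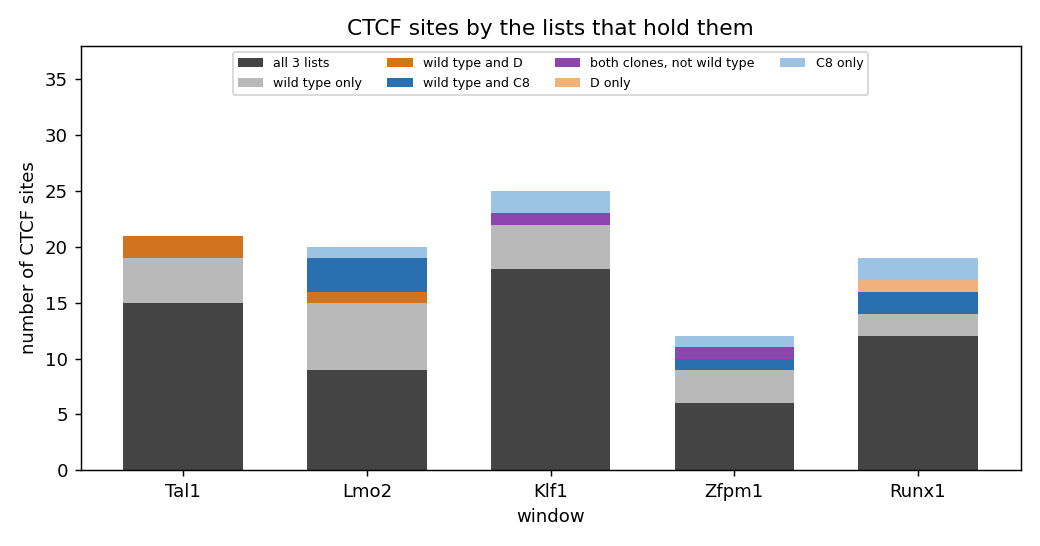
Number of CTCF sites in each window, stacked by the set of peak lists that hold them. Sites of all 3 lists are the largest class in every window, from 6 around Zfpm1 to 18 around Klf1, and the Lmo2 window has the most sites of wild type only (6).

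Klf1 lay in the densest of the windows. Its 250 kb held 25 sites, 10.0 per 100 kb. The median of 10541 stretches of the same width across the genome was 3 sites, and 0.370% of them held 25 or more. The Tal1 window had 6.0 sites per 100 kb and 4.25% of stretches of its width held as many, while 7.09% did so for Lmo2, 12.9% for Zfpm1 and 18.2% for Runx1, where the density was 3.17 per 100 kb. Neighbouring sites lay under 5 kb apart 9 times around Klf1, 6 times each around Tal1 and Lmo2, 2 times around Zfpm1 and 1 time around Runx1.

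Positions are on mm9, on chromosome 4 for Tal1, 2 for Lmo2, 8 for Klf1 and Zfpm1, and 16 for Runx1. Below, enrichment is the authors' fold value of a peak in its own list, and the rank is its place by that value in the list (1 is the strongest of 40271 in wild type, 29769 in clone D and 32308 in clone C8; tied peaks share the better rank). Enrichment and raw rank are not on a common scale between lists. To set lists side by side, the 23933 sites called in all 3 were also ranked among themselves, here called the common rank. The percentile of a peak is its place in its own list, with the strongest near 100. A site's shift is the mean percentile of the 2 clones minus that of wild type, which describes places in lists of unequal length and is no measure of changed binding.

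**Figure D3:**
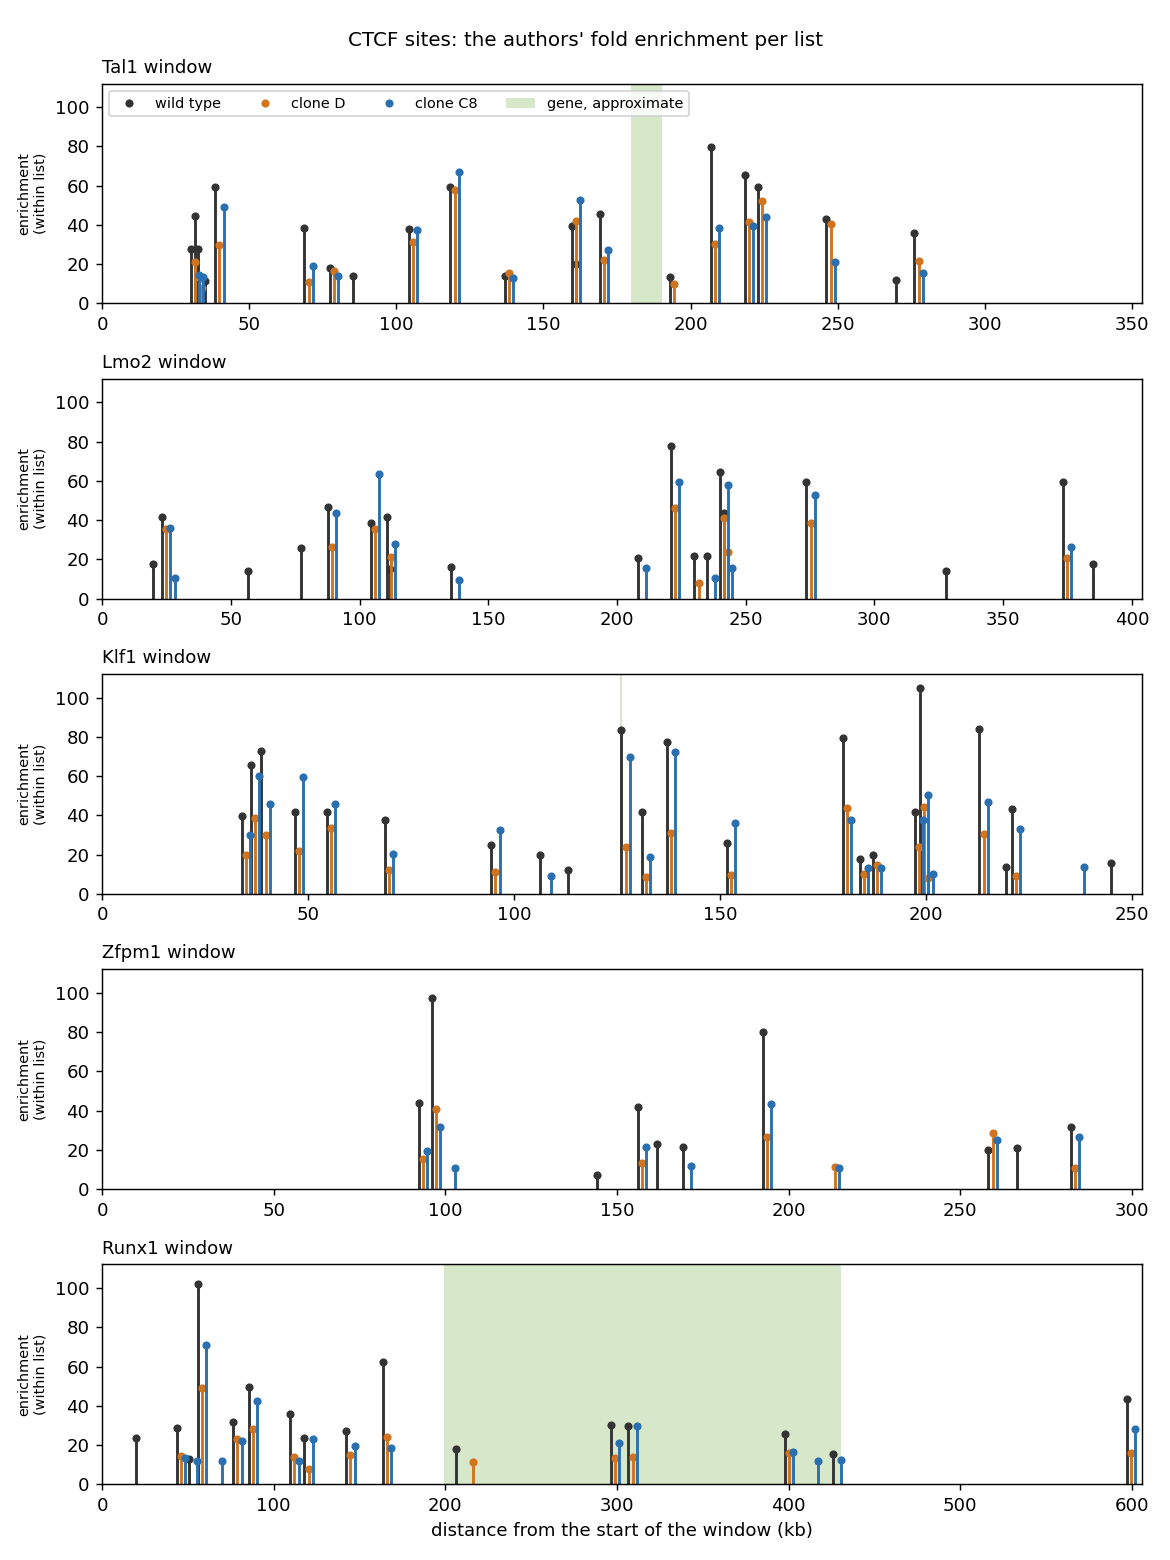
The authors' fold enrichment (y axis, 1 panel per window) of every CTCF site against its distance in kb from the start of the window, for wild type (black), clone D (orange) and clone C8 (blue), drawn slightly apart for visibility; green marks the approximate gene position where one was used. The highest wild-type sites are 105.07 around Klf1, 102.30 around Runx1 and 97.14 around Zfpm1; heights are comparable within a list, not between lists.

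Around Tal1, whose product pairs with E-proteins on E-box DNA, 15 of 21 sites were called in all 3 lists, and no site was called over the approximate position of the gene in any list. The nearest site on the lower side, at 114720206 to 114720817, lay 9.2 kb away and had enrichments of 45.54 in wild type (rank 8558), 22.16 in clone D (rank 10916) and 27.43 in clone C8 (rank 11897). On the higher side the nearest, at 114744179 to 114744576, lay 4.2 kb away and was weak, with 13.62 in wild type (rank 32558) and 10.06 in clone D (rank 23776) and no peak in clone C8. The approximate position was thus flanked by a shared site on the lower side and by a weak call of 2 libraries on the higher side. That position is too coarse to tell whether the weak call, 4.2 kb away, lies outside the gene.

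The strongest Tal1 site in wild type lay on the higher side, 18.0 kb from the gene, at 114758000 to 114758751. Its enrichments were 79.87 in wild type (rank 1329), 30.11 in clone D (rank 6006) and 38.37 in clone C8 (rank 6442). The common rank was 1326 in wild type, 5998 in clone D and 6430 in clone C8, so both clones placed it lower. It stood in a row of 3 strong sites. The second, at 114769699 to 114770344, had 65.42 in wild type (rank 3104), 41.41 in clone D (rank 2150) and 39.62 in clone C8 (rank 5970). The third, at 114773994 to 114774630, had 59.20 in wild type (rank 4533), 51.95 in clone D (rank 673) and 44.14 in clone C8 (rank 4330). Both clones ranked the third of this row higher than the first, clone D by the wider margin, while wild type had the reverse order.

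On the lower side of Tal1, the site at 114589562 to 114590265 had 59.47 in wild type (rank 4283), 29.77 in clone D (rank 6110) and 49.09 in clone C8 (rank 3039). It tied in wild type with the site at 114669457 to 114670149, which had 59.47 in wild type (rank 4283), 57.63 in clone D (rank 355) and 67.11 in clone C8 (rank 705). The second of these tied sites was the strongest of the window in both clones. Its common rank was 4267 in wild type, 354 in clone D and 705 in clone C8. The site at 114710774 to 114711367, 18.6 kb below the gene, had the largest upward shift of the window, with percentiles of 72.5 in wild type, 93.2 in clone D and 92.6 in clone C8. Its enrichments were 39.29 in wild type (rank 11073), 41.99 in clone D (rank 2034) and 52.88 in clone C8 (rank 2406), and its common rank was 10984 in wild type, 2033 in clone D and 2405 in clone C8.

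The largest downward shift near Tal1 was at 114582535 to 114583181, where the percentile was 78.0 in wild type, 35.2 in clone D and 26.1 in clone C8. Enrichments there were 44.39 in wild type (rank 8848), 13.23 in clone D (rank 19300) and 13.62 in clone C8 (rank 23889). This site belongs to a tight group at the lower end of the window. Beside it, 114581468 to 114581800 had 27.75 in wild type (rank 16417), 20.90 in clone D (rank 11797) and 14.21 in clone C8 (rank 22787). Next came 114583755 to 114584176 with 27.75 in wild type (rank 16417) and 7.72 in clone D (rank 28019), not called in clone C8, and 114586094 to 114586528 with 11.57 in wild type (rank 36569) and no peak in either clone. All 4 sites of the group ranked lower than the tied strong site that follows them.

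Among the remaining shared Tal1 sites, 114619857 to 114620548 had 38.64 in wild type (rank 11228), 10.81 in clone D (rank 22564) and 19.19 in clone C8 (rank 18231), and it ranked lower in both clones by common rank (11136 in wild type, 20782 in clone D and 17533 in clone C8). At 114655516 to 114656155 the values were 37.67 in wild type (rank 11440), 31.28 in clone D (rank 5366) and 37.47 in clone C8 (rank 6667), with a higher common rank in both clones (11345 in wild type, 5361 in clone D and 6654 in clone C8). At 114797208 to 114797943 they were 42.86 in wild type (rank 9485), 40.34 in clone D (rank 2400) and 20.99 in clone C8 (rank 16424), so the clones differed widely from each other. The outermost site on the higher side, 114827248 to 114827737, had 35.68 in wild type (rank 12373), 21.41 in clone D (rank 11319) and 15.50 in clone C8 (rank 21435). A pair of weak sites was nevertheless shared by all lists: 114628523 to 114628993, with 17.84 in wild type (rank 24132), 16.47 in clone D (rank 15791) and 13.94 in clone C8 (rank 23705), and 114688038 to 114688489, with 13.88 in wild type (rank 30104), 15.64 in clone D (rank 16591) and 12.92 in clone C8 (rank 24369). Besides the site at 114586094, 3 Tal1 sites were called in wild type only: 114636444 to 114636822 with 13.88 in wild type (rank 30104), 114712370 to 114712800 with 19.82 in wild type (rank 22021) and 114821000 to 114821380 with 11.89 in wild type (rank 34088). Their −log10 p values were 5.39, 7.47 and 5.37, against the lowest value of 5 in the list. No Tal1 site was called in a clone and not in wild type.

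Around Lmo2, the adaptor of the TAL1 complex, 9 of 20 sites were called in all 3 lists, and these 9 were the strongest sites of the window in wild type. Their lowest wild-type enrichment was 38.53, above the highest value of any Lmo2 site absent from a list (25.77). The strongest, at 103822176 to 103822987, had enrichments of 77.80 in wild type (rank 1504), 46.08 in clone D (rank 1391) and 59.18 in clone C8 (rank 1404). Its common rank was 1501 in wild type, 1390 in clone D and 1404 in clone C8, nearly the same in each library. The next, at 103841167 to 103841737, had 64.50 in wild type (rank 3358), 41.16 in clone D (rank 2225) and 57.75 in clone C8 (rank 1555). A companion only 1.12 kb further on, at 103842862 to 103843322, had 43.61 in wild type (rank 8994), 23.88 in clone D (rank 9532) and 15.66 in clone C8 (rank 21189) and stood far lower by common rank in clone C8 than in wild type and clone D (8944 in wild type, 9498 in clone D and 19764 in clone C8). The site at 103874790 to 103875521, with 59.47 in wild type (rank 4283), 38.69 in clone D (rank 2762) and 52.97 in clone C8 (rank 2275), completed the 3 strongest in wild type. By common rank the 3 strongest sites of this window were higher in both clones than in wild type.

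The lower part of the Lmo2 window held 4 shared sites. The site at 103705775 to 103706488 had the largest upward shift, with 38.53 in wild type (rank 11246), 35.49 in clone D (rank 3721) and 63.74 in clone C8 (rank 931). It was the strongest site of the window in clone C8, and its common rank was 11154 in wild type, 3719 in clone D and 931 in clone C8. Its neighbour at 103711996 to 103712569 had 41.48 in wild type (rank 10213), 21.16 in clone D (rank 11638) and 27.66 in clone C8 (rank 11796) and ranked lower in both clones (10136 in wild type, 11565 in clone D and 11692 in clone C8), although the sites lie 5.51 kb apart. The others, 103624585 to 103625240 with 41.63 in wild type (rank 9765), 35.40 in clone D (rank 3738) and 36.17 in clone C8 (rank 7207) and 103688959 to 103689507 with 46.92 in wild type (rank 7988), 26.50 in clone D (rank 7907) and 43.42 in clone C8 (rank 4628), had higher common ranks in both clones. Ranked by −log10 p among the shared sites, the site at 103688959 was slightly lower in both clones (4046 in wild type, 4281 in clone D and 4066 in clone C8). At the far end of the window, 103974497 to 103975003 had the largest downward shift, with 59.32 in wild type (rank 4513), 20.67 in clone D (rank 11953) and 26.51 in clone C8 (rank 12590). Its percentile was 88.8 in wild type, 59.9 in clone D and 61.0 in clone C8, so the clones were close to each other there.

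Of the 11 Lmo2 sites missing from a list, 6 were called in wild type only. The strongest by enrichment was 103678570 to 103678985, with 25.77 in wild type (rank 17585) and a −log10 p of 9.55. The others were 103621354 to 103621628 with 17.84 in wild type (rank 24132), 103658248 to 103658625 with 13.88 in wild type (rank 30104), 103713251 to 103713647 with 15.18 in wild type (rank 29109), 103929081 to 103929472 with 13.88 in wild type (rank 30104) and 103986306 to 103986576 with 17.84 in wild type (rank 24132). The site at 103713251 had the highest −log10 p of the 6, at 10.8. Clone D alone missed 3 sites. They were 103736834 to 103737291, with 16.07 in wild type (rank 26683) and 9.62 in clone C8 (rank 30074), 103809453 to 103809876, with 20.87 in wild type (rank 21652) and 15.63 in clone C8 (rank 21192), and 103836288 to 103836632, with 21.81 in wild type (rank 20368) and 10.34 in clone C8 (rank 28521). Clone C8 alone missed 103831408 to 103831906, with 21.81 in wild type (rank 20368) and 8.12 in clone D (rank 27639). Clone C8 also had 1 site of its own, 103626429 to 103626738, with 10.34 in clone C8 (rank 28521) and a −log10 p of 5.43. Both clones without wild type shared no site of this window.

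Klf1, the gene of an erythroid CACCC-box activator, had a strong CTCF site next to its approximate position. That position is a single point without the length of the gene, so whether the site lies inside the gene was not determined. This site, at 87426803 to 87427379, had enrichments of 83.26 in wild type (rank 1053), 23.87 in clone D (rank 9705) and 69.77 in clone C8 (rank 528). Its common rank was 1052 in wild type, 9668 in clone D and 528 in clone C8, so it stood near the top of the shared sites in wild type and clone C8 but not in clone D. The nearest call on the lower side, 11.6 kb away at 87414023 to 87414409, was a weak site of wild type only, with 11.89 in wild type (rank 34088). Further on the higher side, 87431814 to 87432226 had 41.63 in wild type (rank 9765), 8.40 in clone D (rank 26692) and 18.56 in clone C8 (rank 18541), the largest downward shift of all 60 shared sites. Its percentile was 75.8 in wild type, 10.3 in clone D and 42.6 in clone C8. A further 5.58 kb on, 87437805 to 87438530 had 77.32 in wild type (rank 1533), 31.05 in clone D (rank 5546) and 72.08 in clone C8 (rank 452) and was the strongest site of the window in clone C8.

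The strongest site of the Klf1 window in wild type, 87499140 to 87499855, had 105.07 in wild type (rank 298), 44.08 in clone D (rank 1668) and 50.33 in clone C8 (rank 2883). It was also the strongest of the 97 member sites in wild type and the strongest of this window in clone D. It lay in a group of 3 within a short stretch. On its lower side, 87498003 to 87498607 had 41.63 in wild type (rank 9765), 23.75 in clone D (rank 9761) and 37.87 in clone C8 (rank 6556). On its higher side, 87500363 to 87500832 had 8.28 in clone D (rank 26757) and 10.12 in clone C8 (rank 29663) and was not called in wild type, which makes it 1 of the 2 member sites of both clones only. The second strongest, 87513565 to 87514523, had 84.18 in wild type (rank 1026), 30.51 in clone D (rank 5754) and 46.90 in clone C8 (rank 3585). This was the only member site with 2 peaks in 1 list, in clone D, and the stronger of these is given.

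The 7 sites of the Klf1 window farthest below the gene were all shared, and 6 of them are given here. The first, 87334722 to 87335254, had 39.65 in wild type (rank 10610), 19.96 in clone D (rank 12557) and 30.06 in clone C8 (rank 10381). The next, 87336791 to 87337533, had 65.42 in wild type (rank 3104), 38.65 in clone D (rank 2855) and 60.05 in clone C8 (rank 1301). The third, 87339423 to 87339934, had 72.97 in wild type (rank 2136), 29.84 in clone D (rank 6093) and 45.59 in clone C8 (rank 3937). The gaps between these sites are 1.54 and 1.89 kb, and the middle site ranked in the top 10% of every list. Further on, 87347542 to 87347992 had 41.63 in wild type (rank 9765), 21.57 in clone D (rank 11239) and 59.43 in clone C8 (rank 1322), and 87355254 to 87355898 had 41.63 in wild type (rank 9765), 33.52 in clone D (rank 4505) and 45.83 in clone C8 (rank 3894). The latter had the largest upward shift of the window, with a common rank of 9695 in wild type, 4501 in clone D and 3892 in clone C8. The sixth, 87369411 to 87369918, had 37.67 in wild type (rank 11440), 11.92 in clone D (rank 21177) and 20.52 in clone C8 (rank 17090) and ranked lower in both clones (11345 in wild type, 19863 in clone D and 16589 in clone C8).

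Several Klf1 sites separated the clones from each other. At 87395244 to 87395697, the seventh of the row, the enrichments were 24.89 in wild type (rank 18598), 11.04 in clone D (rank 22310) and 32.31 in clone C8 (rank 9052). At 87452548 to 87452844 they were 25.77 in wild type (rank 17585), 9.46 in clone D (rank 24990) and 35.98 in clone C8 (rank 7491), and at 87521650 to 87522200 they were 43.17 in wild type (rank 9436), 9.13 in clone D (rank 25360) and 32.79 in clone C8 (rank 8909). In each of these 3, clone C8 ranked the site above wild type and clone D ranked it below by common rank. At 87480581 to 87481091 clone D stood above clone C8 by enrichment, with 79.30 in wild type (rank 1350), 43.63 in clone D (rank 1713) and 37.61 in clone C8 (rank 6618). Ranked by −log10 p among the shared sites, the clones had the reverse order there (4690 in clone D and 1707 in clone C8). Among the 18 shared sites of the window, 14 had a better common rank in clone C8 than in clone D, against 53.2% of the 1176 shared sites of chromosome 8 and 49.6% of all shared sites. Around Zfpm1, on the same chromosome, the count was 3 of 6, and over the 5 windows it was 29 of 60. Around Tal1 it was 2 of 15.

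Weak Klf1 sites of all lists were 87484696 to 87485175, with 17.84 in wild type (rank 24132), 9.88 in clone D (rank 23955) and 12.92 in clone C8 (rank 24369), and 87487882 to 87488257, with 19.82 in wild type (rank 22021), 14.82 in clone D (rank 17450) and 13.23 in clone C8 (rank 24154). Besides the site at 87414023, wild type alone had 87407016 to 87407327 with 19.82 in wild type (rank 22021), 87520327 to 87520726 with 13.49 in wild type (rank 32622) and 87545749 to 87546031 with 15.86 in wild type (rank 26877). Clone C8 alone had 87407787 to 87408105, with 9.04 in clone C8 (rank 30495), and 87537127 to 87537441, with 13.59 in clone C8 (rank 23893). The first of these lay 0.46 kb from the wild-type-only site at 87407016, so these calls of different libraries were neighbours without overlap.

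Around Zfpm1, the FOG1 gene, the lowest number of sites was called, and 6 of 12 were in all 3 lists. The strongest in wild type, 124796890 to 124797484, had enrichments of 97.14 in wild type (rank 469), 40.77 in clone D (rank 2340) and 31.83 in clone C8 (rank 9501). It was the strongest of the window in clone D too, but its common rank was 469 in wild type, 2339 in clone D and 9450 in clone C8. The next, 124893419 to 124894053, had 79.79 in wild type (rank 1333), 26.30 in clone D (rank 8139) and 43.43 in clone C8 (rank 4609) and common ranks of 1330 in wild type, 8119 in clone D and 4604 in clone C8. The third, 124793234 to 124793844, lay 3.04 kb below the strongest site and had 43.62 in wild type (rank 8988), 15.28 in clone D (rank 17145) and 19.36 in clone C8 (rank 18115), the largest downward shift of the window. Its percentile was 77.7 in wild type, 42.4 in clone D and 43.9 in clone C8. The site at 124856868 to 124857590, with 41.63 in wild type (rank 9765), 13.41 in clone D (rank 19153) and 21.30 in clone C8 (rank 16284), was lower in both clones as well (9695 in wild type, 18359 in clone D and 15900 in clone C8). Thus 4 of the 6 shared Zfpm1 sites had a lower common rank in both clones, and these were the 4 strongest in wild type. The share for equally strong shared sites elsewhere was not counted, so no link between strength and a lower rank can be read from this. Ranked by −log10 p among the shared sites, the site at 124856868 was not lower in both clones (11529 in wild type, 15718 in clone D and 9641 in clone C8).

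Of the other shared Zfpm1 sites, 124959135 to 124959751 went the opposite way, with 19.73 in wild type (rank 23309), 28.53 in clone D (rank 6786) and 25.09 in clone C8 (rank 13551). This was the largest upward shift of all 60 shared sites, with percentiles of 42.1 in wild type, 77.2 in clone D and 58.1 in clone C8. Its −log10 p was 11 in wild type, 42.7 in clone D and 25.1 in clone C8. The last, 124983270 to 124983818, had 31.77 in wild type (rank 14305), 10.58 in clone D (rank 23242) and 26.41 in clone C8 (rank 12643), and the clones stood on either side of wild type by common rank. Both clones, without wild type, called 124913216 to 124913754, with 11.04 in clone D (rank 22310) and 10.70 in clone C8 (rank 28230). Wild type alone had 124845267 to 124845712 with 7.40 in wild type (rank 40229), 124862745 to 124863077 with 22.77 in wild type (rank 20046) and 124967472 to 124967783 with 20.87 in wild type (rank 21652). Clone D alone missed 124870100 to 124870486, with 21.43 in wild type (rank 21464) and 11.86 in clone C8 (rank 26145). Clone C8 alone called 124801486 to 124801923, with 10.95 in clone C8 (rank 27992). All of these sites of 1 or 2 lists were below the median of the lists that hold them, except 124862745 to 124863077, at the middle of the wild-type list (percentile 50.2).

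Runx1 had its strongest CTCF sites outside the gene. Over the approximate gene, 7 sites were called, and 3 of them in all 3 lists. The strongest of these in wild type, 92698756 to 92699254, had enrichments of 30.36 in wild type (rank 15084), 13.41 in clone D (rank 19153) and 21.22 in clone C8 (rank 16300). The second, 92708837 to 92709380, had 29.74 in wild type (rank 15330), 13.91 in clone D (rank 18745) and 29.71 in clone C8 (rank 10512), and the third, 92800080 to 92800671, had 25.77 in wild type (rank 17585), 15.87 in clone D (rank 16416) and 16.58 in clone C8 (rank 20747). None of the 3 reached the top 10% of any list. The other 4 sites within the gene were 92608415 to 92608809 in wild type only, with 17.84 in wild type (rank 24132), 92615692 to 92616074 in clone D only, with 11.13 in clone D (rank 22257), 92814621 to 92815010 in clone C8 only, with 11.63 in clone C8 (rank 26294), and 92828231 to 92828558, with 15.18 in wild type (rank 29109) and 12.23 in clone C8 (rank 25838) and no peak in clone D. The call at 92615692 was the only member site of clone D alone. A stretch of 90.70 kb within the gene had no call in any list.

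The strongest Runx1 site, 92457744 to 92458485, lay 141.5 kb on the lower side of the gene and had 102.30 in wild type (rank 362), 49.25 in clone D (rank 979) and 70.81 in clone C8 (rank 508). It was the strongest site of the window in every library, and its common rank was 362 in wild type, 978 in clone D and 508 in clone C8. The second in wild type, 92565751 to 92566444, is the nearest to the gene on this side, at 33.6 kb. Its enrichments were 62.32 in wild type (rank 3791), 24.33 in clone D (rank 9305) and 18.35 in clone C8 (rank 18643), and its common rank of 3778 in wild type, 9274 in clone D and 17896 in clone C8 was lower in both clones. The third, 92487672 to 92488339, had 49.56 in wild type (rank 6906), 27.92 in clone D (rank 7170) and 42.18 in clone C8 (rank 5037), and its common ranks were 6877 in wild type, 7153 in clone D and 5029 in clone C8. The nearest site on the higher side was at 92999265 to 92999799, 169.3 kb away, with 43.61 in wild type (rank 8994), 16.14 in clone D (rank 16212) and 28.23 in clone C8 (rank 11568). No site was called in the 170.71 kb before it, the longest gap of the 5 windows.

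The largest downward shift of the Runx1 window was at 92511889 to 92512364, with 35.68 in wild type (rank 12373), 13.78 in clone D (rank 18892) and 11.72 in clone C8 (rank 26204). Its percentile was 69.3 in wild type, 36.5 in clone D and 18.9 in clone C8. None of the 12 shared Runx1 sites had an upward shift, a direction that 13 of the 60 shared member sites (21.7%, 12.1 to 34.2) and 29.8% of all shared sites had. By common rank, 7 of the 12 were lower in both clones and 5 were lower in 1 clone only. Of the others, 92445558 to 92446077 had 28.57 in wild type (rank 16231), 14.38 in clone D (rank 18050) and 13.28 in clone C8 (rank 24139). At 92478612 to 92479162 the values were 31.69 in wild type (rank 14887), 23.22 in clone D (rank 10031) and 21.96 in clone C8 (rank 15568), and at 92544453 to 92544981 they were 26.95 in wild type (rank 17281), 15.01 in clone D (rank 17320) and 19.30 in clone C8 (rank 18153). At 92520077 to 92520496 clone C8 stood above wild type and clone D below it by common rank (18606 in wild type, 23202 in clone D and 14805 in clone C8), with 23.61 in wild type (rank 19796), 7.99 in clone D (rank 27729) and 23.00 in clone C8 (rank 15086). Sites outside the gene and absent from a list were 92421754 to 92422126 in wild type only, with 23.79 in wild type (rank 18872), 92452918 to 92453193, with 12.65 in wild type (rank 33470) and 12.01 in clone C8 (rank 26041) and no peak in clone D, and 92467207 to 92467557 in clone C8 only, with 11.63 in clone C8 (rank 26294).

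The places of the 60 shared sites differed between lists about as often as those of shared sites elsewhere. By percentile of the list, 32 of 60 were lower in both clones (53.3%, 40.0 to 66.3), against 52.7% of all 23933 shared sites, and 9 of 60 were higher in both (15.0%, 7.10 to 26.6), against 19.7%. The wild-type list has more weak peaks, so any shared site tends to sit at a higher percentile there. By common rank, which has no such tilt, 25 of 60 were lower in both clones (41.7%, 29.1 to 55.1), against 35.2%, and 14 of 60 were higher (23.3%, 13.4 to 36.0), against 35.0%. All 4 of these background shares lie inside the members' intervals. Which direction was the more frequent depended on the setting. Among peaks with a false discovery rate of at most 0.05, 16 of 56 shared sites were lower by percentile in both clones (28.6%, against 23.0% of all). There, 24 were higher (42.9%, against 50.5%). That limit cut the lists unevenly: 29 of 88 wild-type member peaks fell out, but only 7 of 74 for clone C8 and 1 of 67 for clone D. With lists of equal length the members' balance did not turn, while all shared sites were near even. There, 24 of 59 were lower (40.7%, against 35.4% of all) and 15 higher (25.4%, against 35.0%). Across the shared member sites, Spearman's rho of the enrichments was 0.66 between wild type and clone D, 0.66 between wild type and clone C8 and 0.69 between the clones (n = 60 sites from the same 3 libraries), against 0.69, 0.71 and 0.75 over all shared sites. In both sets of sites, the values with wild type were somewhat below the value between the clones. With 1 library each, that gap cannot be set against the spread between libraries, and it was not tested.

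**Figure D4:**
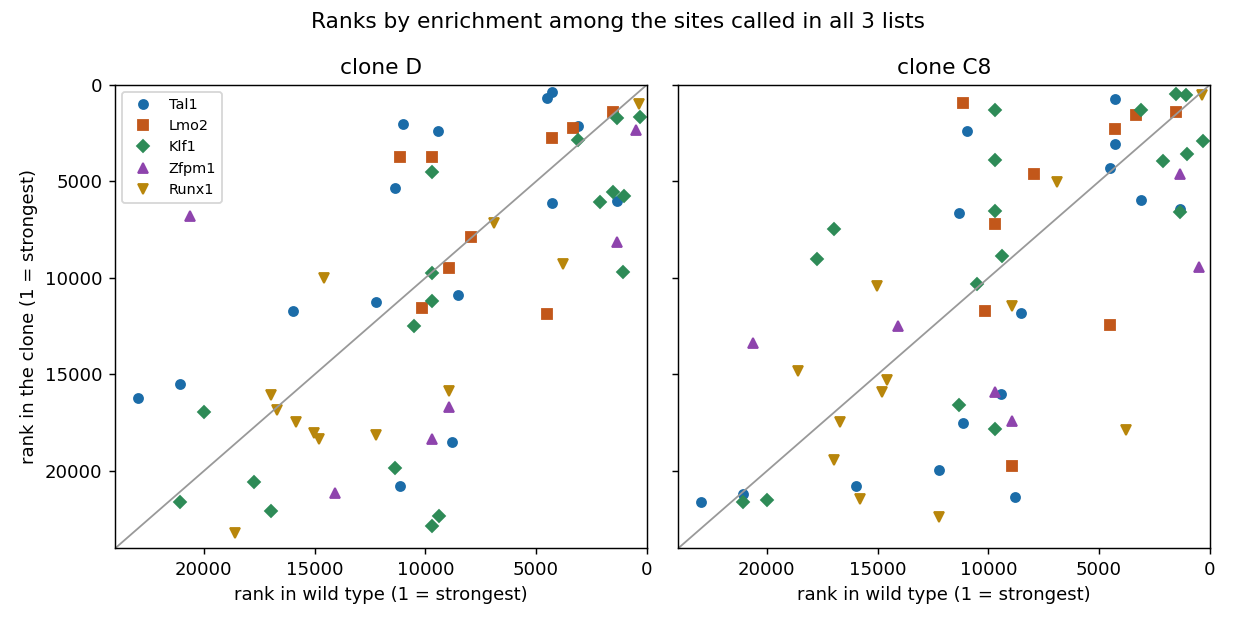
Common rank (1 is the strongest of 23933 sites called in all 3 lists) of the 60 shared member sites in wild type (x axis) against clone D (left) and clone C8 (right), with axes running from weak to strong and a grey line of equal rank. Runx1 and Zfpm1 sites (triangles) lie mostly below the line, while most Lmo2 sites (squares) lie above it, where the rank is better in the clone.

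The counts by window lay on both sides of the shares over all shared sites. By common rank, where those shares were 35.2% lower and 35.0% higher, the counts lower and higher in both clones were 7 and 0 of 12 around Runx1, 4 and 1 of 6 around Zfpm1, 7 and 2 of 18 around Klf1, 4 and 5 of 15 around Tal1, and 3 and 6 of 9 around Lmo2. Ranked by −log10 p in place of enrichment, 35.7% of all shared sites were lower in both clones and 35.8% higher, and the members gave 21 of 60 (35.0%, 23.1 to 48.4) and 16 of 60 (26.7%, 16.1 to 39.7). By window these counts were 4 and 1 around Runx1, 3 and 1 around Zfpm1, 5 and 3 around Klf1, 5 and 6 around Tal1, and 4 and 5 around Lmo2. Runx1 was thus less one-sided by this measure. No test of these differences between windows was made, since each rests on 3 libraries and few sites. The median common rank of the Lmo2 sites was 7949 in wild type, 3736 in clone D and 4623 in clone C8. For the Runx1 sites it was 14690, 16445 and 15590.5 in the same order.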

How the data were processed

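CTCF ChIP-seq peaks of G1E-ER4 cells were taken as the authors deposited them, in 1 broad-peak list per library for 3 libraries. Reads were processed with bcl2fastq 1.8.4 and Bowtie 1.0.0 on mm9, per the submitters' processing notes. For the peak caller, its settings and its use of the inputs, the sources used here give nothing. In the deposited lists, column 7 holds a fold enrichment (a linear ratio of signal over background), column 8 a −log10 p-value of at least 5, and column 9 a false discovery rate, as a fraction. The units of these columns were read from the values, since the lists have no header. Column 9 is not a q-value, since it can rise with column 8. In clone D, a −log10 p of 40.3 had 0.0005 and one of 106 had 0.0049. The lists hold no read totals, so depth is unknown and the enrichments of different lists share no stated scale.

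Peaks that overlapped by at least 1 bp were merged into sites with Python 3.11.15 and pandas 2.3.3, and the strongest peak stood for a site. Merging was tested on simulated data, and 6 overlap counts equalled those of bedtools 2.31.1. Exact 95% binomial intervals came from SciPy 1.17.1. No test between genotypes was made, as each had 1 library. The members and lists were chosen with earlier results of these data known. All sites are given. The sites singled out were, in each window, the 3 strongest in wild type among those of all lists, those nearest to or inside the gene, those absent from a list, and those with the largest shift in percentile either way. Alternatives were a −log10 p of at least 10, a false discovery rate of at most 0.05, lists shortened to the 29769 strongest peaks, peaks extended by 500 bp, a reciprocal overlap of 50%, windows widened by 100 kb and leaving out each clone. Ranks among the sites of all lists were added after seeing the data.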

Additional observations from a re-analysis of the deposited data

How the results depend on the processing

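Counts were held to have moved where they differed by over 1.5 times, and shares where they left the exact 95% interval of the reported share. Of 76 values under alternative settings, 53 had not moved and 23 had. The share over the whole lists follows the values after "against", except for the ranges given where a clone was left out. When only peaks reaching a −log10 p of 10 were kept, clone D overlapped 87.1% of member peaks (against 84.0%), clone C8 85.5% (against 85.1%) and both 80.6% (against 79.5%). There, 5 of 66 sites were in wild type only (7.58%, against 8.65%), 0 in both clones and not wild type (against 6.50%), and 21 of 50 shared sites were lower by percentile in both clones (42.0%, against 35.8%). When the false discovery rate was limited to 0.05, the shares were 94.9% (against 93.6%), 96.6% (against 93.7%) and 94.9% (against 91.0%). Of 74 sites, 2 were in wild type only (2.70%, against 2.38%) and 4 in both clones and not wild type (5.41%, against 15.2%). This setting turned the balance of the 56 shared sites, to 16 lower (28.6%, against 23.0%) and 24 higher (42.9%, against 50.5%), as it did over all shared sites. It dropped 29 of 88 member peaks from the wild-type list, but 7 of 74 from clone C8 and 1 of 67 from clone D. Its overlaps and its balance thus compare lists cut to unequal degrees. With lists of equal length, 12 of 88 sites were in wild type only (13.6%, against 11.4%), which put the members above the background and not below it, and 15 of 59 shared sites were higher (25.4%, against 35.0%). Clone D then overlapped 79.2% of member peaks, below the background of 80.6%. With peaks extended by 500 bp, 1 of 90 sites was in both clones and not wild type (1.11%, against 4.42%). In windows widened by 100 kb, 51 of 84 shared sites were lower (60.7%, against 52.7%). Ranked among the sites of all lists, 14 of 60 were higher by enrichment (23.3%, against 35.0%), and by −log10 p 21 were lower (35.0%, against 35.7%) and 16 higher (26.7%, against 35.8%). Leaving out a clone gave 63 to 66 sites of all remaining lists, shares of 71.6% for clone D and 75.0% for clone C8 (71.6 to 75.0% in place of both), 22 to 25 sites in wild type only, 3 to 8 in clones only, 44 to 46 lower and 17 to 22 higher. These differ because a site then has 1 clone list to meet in place of 2. Without clone D, 68.8% of sites were in all remaining lists (against 56.7%). In that setting 22.9% were in wild type only (against 30.3%) and 8.33% in clone C8 only (against 13.0%). Of shared sites, 66.7% were then lower (against 65.5%) and 33.3% higher (against 34.5%). Without clone C8, 69.2% of sites were in all remaining lists (against 56.7%). In that setting 27.5% were in wild type only (against 33.4%) and 3.30% in clone D only (against 9.98%). Of shared sites, 73.0% were then lower (against 69.4%) and 17 of 63 higher (against 30.6%). No paired analysis was possible because each genotype or clone had 1 library and no test was made. Depth is unknown, so calls missing from the 2 shorter clone lists cannot be told apart from shallower libraries.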
